A study of Mus musculus with 10 samples.

Results

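The 26 genes described here make cholesterol or set how fast it is made. They are 4 regulators (Srebf2, Scap, Insig1 and Insig2), 20 enzymes running from acetyl-CoA to cholesterol, and 2 genes of sterol handling (Stard4 and Soat2). They were chosen by symbol, as genes of cholesterol synthesis and known targets of the transcription factor SREBP2. The rule uses no measured value, but the choice was made with earlier results of these data known. Each matched 1 row of a table of 46071 gene rows, and all 26 passed the filter on low counts that left 14820 genes for testing.

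Liver polyadenylated RNA was sequenced in 10 libraries from mice grouped by their parents. Both parents of the 4 control libraries were IRlox/lox; Albumin-Cre-/-, that is, homozygous for a floxed insulin receptor gene without the recombinase, from a line kept as controls for 4 generations. The 3 FL libraries had a LIRKO father (IRlox/lox; Albumin-Cre+/-) and a control mother, and the 3 ML libraries came from the reverse cross, of a LIRKO mother with a control male. LIRKO mice lack the insulin receptor in hepatocytes, where the albumin promoter drives Cre. Every parent of every group carried the floxed gene, so the groups differ in which parent carried Cre. The offspring's own Cre genotype, sex and age are not given in the labels, nor do they say that every library is its own animal. The p-values therefore rest on library-to-library spread, which may be technical.

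Library totals ran from 18655506 counts (control 1) to 39379940 (control 2). ML 9 stood apart, with a TMM scaling factor of 0.577 against 0.933 to 1.16 in the 9 others. Insr, the gene floxed in every parent, had 1103, 3227, 4954 and 3082 counts in controls 1 to 4. It had 2096, 2049 and 2041 in FL 5 to 7, and 2072, 432 and 1779 in ML 8 to 10. These are raw counts, scaled by neither library total nor TMM factor, and cannot be compared directly between libraries. The 6 hepatocyte markers summed to 59700 to 88310 CPM (counts per 1000000, scaled by the TMM factors) in the control libraries, against 58480 to 64330 for FL and 51280 to 85020 for ML, with none at 0 in any library. In ML 9 Apoa1, a hepatocyte marker, measured 32766 CPM. Tat, Cps1 and Fgb, also hepatocyte markers, measured 193, 1373 and 1820 CPM there, each the lowest of the 10 libraries. Markers of several other cell types, though not of all, stood high in ML 9. The 6 Kupffer cell markers summed to 193 to 380 CPM among controls, 194 to 281 among FL and 187 to 876 among ML libraries. The 5 erythroid markers summed to 184 to 625, 127 to 249 and 312 to 2114 CPM. Both highest sums were those of ML 9. ML 8 and ML 10 measured 309 and 187 CPM for Kupffer markers and 312 and 382 CPM for erythroid markers. Of the Kupffer markers, Marco measured 4.37 CPM in ML 9, within the control range. The 5 cholangiocyte markers had their lowest sum in ML 9, at 21.4 CPM. The 5 T and NK cell markers summed to 15.5 CPM in ML 9 and to between 1.2 and 3.5 CPM in the other libraries. Of the 4 adipocyte markers 3 were at 0 in at least 1 library. The part of these markers in the results was not tested. In whole liver, fewer cells of a type and less RNA per cell cannot be told apart.

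SREBP2, made from Srebf2, is held in the endoplasmic reticulum by SCAP while sterols are plentiful, because the INSIG proteins bind SCAP. When sterols run low, SCAP carries SREBP2 to the Golgi, where proteases free the part that enters the nucleus and turns on most enzymes of the pathway. Insig1 is itself an SREBP target, whereas liver Insig2 is known to be lowered by insulin. The liver is a major site of cholesterol synthesis, and SREBP2 usually acts with NF-Y, which binds CCAAT boxes, and Sp1, which binds GC boxes.

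Promoter stretches of 4 members that the results below turn on are shown so that these elements can be seen in their setting. They come from RefSeq windows on GRCm38.p6 that reach from 250 bases before to 50 bases after each start site, and run 5′ to 3′ on the gene's strand. Capitals mark TCACNCCAC (the core of the sterol regulatory element), CCAAT and GGGCGG, on either strand.
Hmgcs1, chr13:119690171-119690330, plus strand: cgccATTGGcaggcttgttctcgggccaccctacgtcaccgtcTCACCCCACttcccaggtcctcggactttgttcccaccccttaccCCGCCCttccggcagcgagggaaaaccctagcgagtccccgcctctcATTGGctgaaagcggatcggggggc
Lss, chr10:76531425-76531584, plus strand: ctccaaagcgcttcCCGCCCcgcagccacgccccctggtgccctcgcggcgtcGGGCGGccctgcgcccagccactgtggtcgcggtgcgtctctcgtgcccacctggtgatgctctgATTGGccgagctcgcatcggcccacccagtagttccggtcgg
Srebf2, chr15:82147089-82147180, plus strand: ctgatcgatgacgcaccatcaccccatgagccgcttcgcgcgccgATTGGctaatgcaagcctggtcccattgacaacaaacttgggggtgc
Insig2, chr1:121332610-121332769, minus strand: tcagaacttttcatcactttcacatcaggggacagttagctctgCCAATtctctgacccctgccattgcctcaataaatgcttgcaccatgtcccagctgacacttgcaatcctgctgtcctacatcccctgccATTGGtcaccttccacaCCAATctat

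Hmgcs1 was the 1 gene of 21 with a RefSeq window that held the TCACNCCAC core, at -137 to -129 from its start, and 1.24% of all 32851 windows held it. The looser CACNCNAC, which every core also contains, was in 6 of the 27 windows of these 21 genes and in 12.1% of all windows. Those 6 windows belonged to 5 genes. CCAAT was in 19 of the 27 windows of these 21 genes and in 37.4% of all windows, and GGGCGG was in 22 of 27 and in 35.7%. Insig2 had 3 windows. The stretch shown for it held 3 CCAAT boxes and no GC box, each of its 2 other windows held 1 GC box and no CCAAT box, and that for Lss held 1 CCAAT box and 2 GC boxes. The Srebf2 stretch, cut to 92 bases, held a CCAAT box and no GC box. Its full window held GC boxes outside that stretch, at -211 to -206 and -79 to -74 among others. These matches describe the letters and not binding. Fdft1, Sqle, Fdps, Soat2 and Stard4 were not searched.

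The genes ranged widely in abundance. Per kilobase of exon, the controls held most of Sc5d, a sterol desaturase near the end of the pathway, at 102 ± 43.8 RPKM (CPM per kilobase of exon; SD, n = 4). Insig1 (87.0 ± 21.9 RPKM), Ebp (83.6 ± 1.66 RPKM) and Insig2 (82.5 ± 50 RPKM) followed, and their spreads overlapped. Hmgcs1, the synthase that makes HMG-CoA, stood at 53.9 ± 33.7 RPKM. The lowest were Lss at 3.71 ± 1.45 RPKM, Lbr at 1.81 ± 0.376 RPKM and Ggps1 at 1.33 ± 0.570 RPKM.

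The controls themselves differed. Control 3 held the highest value of all 10 libraries for 14 of the 26 genes. ML 10 held the lowest for 10 genes, ML 9 the lowest for 7 and the highest for 5, and FL 5 the lowest for 4. Summed over the 20 enzymes, expression was 2215, 1432, 2703 and 1762 CPM in controls 1 to 4. It was 1420, 1633 and 1223 CPM in FL 5 to 7, and 1414, 1504 and 868.5 CPM in ML 8 to 10. FL 6 and ML 9 lay within the range of the controls, and the other 4 offspring libraries of LIRKO parents lay below it. Against the control mean, the median gene stood lowest in ML 10, at -0.98 on the log2 scale, with 25 of 26 genes below that mean.

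**Figure D1:**
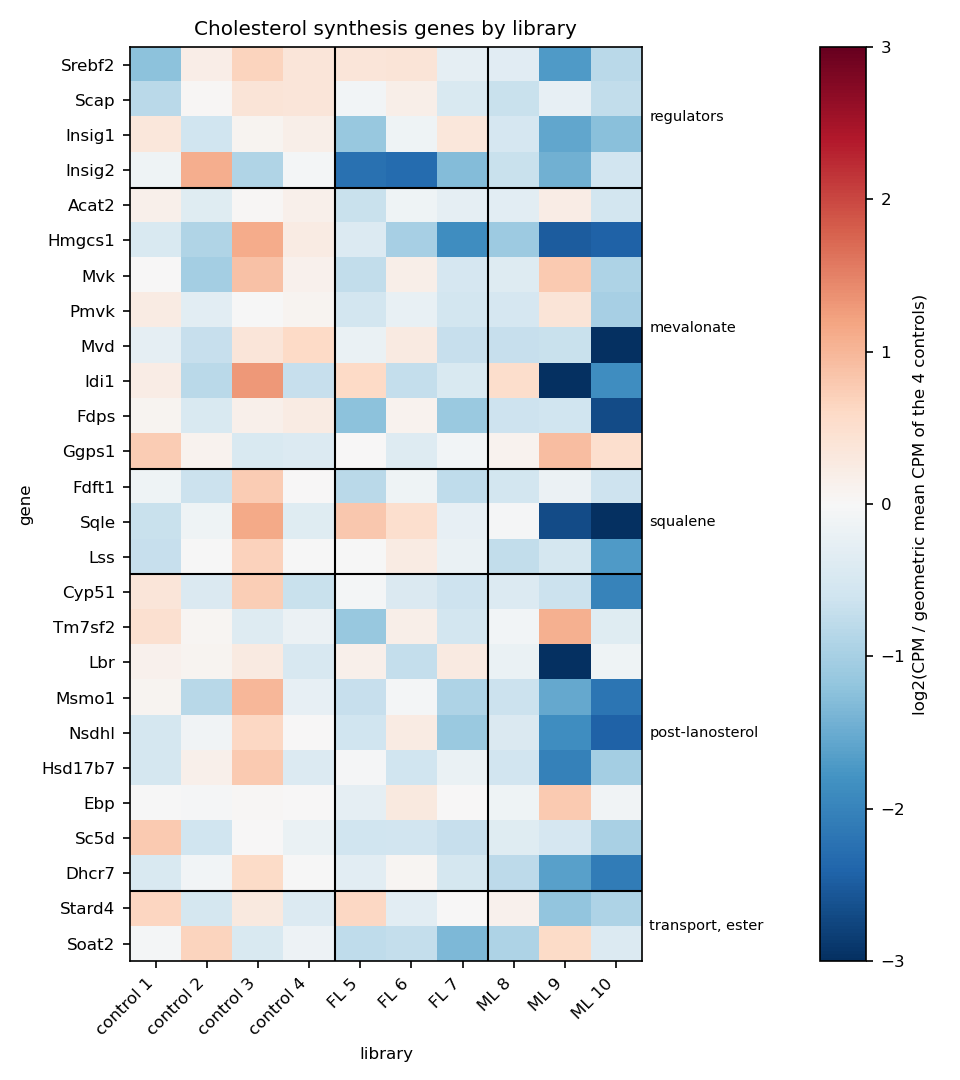
Log2 of each gene's CPM over the control mean in all 10 libraries, genes in rows by role and libraries in columns, with colours that saturate at -3 and 3. Control 3 is mostly above the control mean and ML 10 is below it for 25 of 26 genes, while ML 9 mixes high and low genes.

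In offspring of LIRKO mothers, 23 of the 26 genes had a lower estimate than in controls, and the median of their log2 fold changes was -0.99, against -0.05 over all genes tested. None passed the test: edgeR's quasi-likelihood test with Benjamini-Hochberg adjustment called 0 of 26 members and 0.0% of the 14820 genes, and the lowest adjusted p among members was 0.301. Of all genes, 52.9% were below 0. At an unadjusted p under 0.05 there were 10 members, all lower (Srebf2, Insig1, Hmgcs1, Mvd, Lss, Cyp51, Msmo1, Nsdhl, Hsd17b7 and Dhcr7), where 7.33% of all genes were lower at that p. DESeq2 and limma-voom also called 0 members, with 13 and 11 at an unadjusted p under 0.05. Of the 26588 and 14820 genes they tested, 12.1% and 9.57% had such a p in either direction. Hmgcs1, Fdps, Hsd17b7 and Dhcr7 were lower in every ML library than in every control, where 2.86% of all genes were.

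Among the regulators, Srebf2, the gene of SREBP2 itself, measured 15.3, 41.7, 57.3 and 46.5 CPM in controls 1 to 4 and 28.3, 11.1 and 20.5 CPM in ML 8 to 10. Control 1 fell among the ML values, and the 3 other controls lay above all of them. The log2 fold change was -1.01 (SE 0.45, adjusted p = 0.307 by edgeR), and -0.33 with a surrogate variable in the fit. Scap, the escort protein, measured 48.8, 88.1, 111 and 110 CPM in controls and 53.8, 71.4 and 51.3 CPM in ML. Control 1 lay below all 3 ML libraries and the 3 other controls above them, with a log2 fold change of -0.61 (SE 0.33, adjusted p = 0.352 by edgeR) that was -0.06 once each library's trend on the length and GC content of exons had been removed. Insig1, a retention protein for SCAP that SREBPs induce, measured 331, 174, 275 and 296 CPM in controls and 185, 89.5 and 109 CPM in ML. Only control 2 fell below the highest ML library. Its log2 fold change was -1.07 (SE 0.41, adjusted p = 0.301 by edgeR).

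In the mevalonate arm, which builds isoprenoid units, 7 of 8 genes had estimates below 0 and Hmgcs1 had the lowest. It measured 157, 115, 462 and 257 CPM in controls and 101, 38.1 and 40.1 CPM in ML. The groups did not overlap, though ML 8 came close to control 2. The log2 fold change was -2.05 (SE 0.57, adjusted p = 0.301 by edgeR, with a range of 0.0562 to 0.996 over the alternative settings), and -2.67 without ML 8. Mvd, the mevalonate diphosphate decarboxylase, averaged 16.3 ± 6.36 CPM in controls and 6.91 ± 4.67 CPM in ML (SD, n = 4 and 3), with ML 10 at 1.52 CPM. Its log2 fold change was -1.25, and -2.50 by limma-voom with quality weights. Fdps, which makes farnesyl diphosphate, averaged 28.5 ± 5.67 and 13.7 ± 8.08 CPM, a log2 fold change of -1.06 that was -1.92 with those weights. Its count shares 1124 bases of exon with Gm43738 on the same strand and is uncertain. Idi1, the isopentenyl diphosphate isomerase, ran from 2.28 to 47.1 CPM in ML, and its log2 fold change of -1.01 became -0.40 without control 3 and -2.79 without ML 8. Acat2 (the thiolase of the first step), Mvk and Pmvk (the mevalonate kinases) had log2 fold changes of -0.19, -0.14 and -0.27. Without single libraries they ran from -0.43 to -0.04, from -0.76 (without ML 9) to 0.21 (without control 3) and from -0.73 to -0.01. Ggps1, which diverts isoprenoids to geranylgeranyl diphosphate, was the exception in this arm at 0.46 (SE 0.37).

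Of the 3 genes from squalene to lanosterol, Sqle, the squalene epoxidase and a slow step of the pathway, had the widest spread. It measured 23.4, 33.9, 81.3 and 28.9 CPM in controls and 35.9, 5.74 and 2.64 CPM in ML. ML 8 lay above 3 of the 4 controls, while ML 9 and ML 10 lay below all of them. The log2 fold change was -1.50 (SE 0.77, adjusted p = 0.337 by edgeR), -3.34 without ML 8 and -2.13 by limma-voom. Lss, which closes squalene epoxide into lanosterol, measured 23.6, 37.7, 61.4 and 37.6 CPM in controls and 22.7, 26.1 and 11.6 CPM in ML. Only control 1 reached into the ML range. Its log2 fold change was -0.995 (SE 0.38, adjusted p = 0.301 by edgeR), and -0.36 with that trend removed. Fdft1, the squalene synthase, averaged 95.9 ± 40.6 CPM in controls and 66.6 ± 11.6 CPM in ML.

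Of the 9 genes from lanosterol to cholesterol, 7 had estimates below 0 and 5 had an unadjusted p under 0.05. Dhcr7, the reductase of the last step of one branch, measured 56.8, 73.9, 117 and 77.4 CPM in controls and 45.7, 25.2 and 18.4 CPM in ML. All 3 ML libraries lay below all 4 controls. The log2 fold change was -1.45 (SE 0.38, adjusted p = 0.301 by edgeR, 0.0600 to 0.996 over the alternative settings). Msmo1, the methylsterol monooxygenase, measured 167, 89.3, 315 and 134 CPM in controls and 101, 54.8 and 34.5 CPM in ML. Control 2 fell below ML 8, so the groups overlapped. Its log2 fold change was -1.47 (SE 0.49, adjusted p = 0.301 by edgeR). Nsdhl, which works on the same carbon as Msmo1, averaged 59.6 ± 20.4 CPM in controls and 22.9 ± 17.1 CPM in ML, and its log2 fold change of -1.38 became -2.19 without ML 8. Hsd17b7, the ketoreductase that follows, averaged 60.9 ± 26.9 and 26.7 ± 12.1 CPM. Cyp51, the lanosterol demethylase, averaged 184 ± 82.7 and 92.9 ± 44.6 CPM, and Sc5d averaged 494 ± 213 and 308 ± 62.7 CPM (SD, n = 4 and 3 throughout).

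Tm7sf2 and Ebp had estimates above 0 in ML, at 0.31 (SE 0.42) and 0.25 (SE 0.30), and ML 9 set both signs. ML 9 measured 283 CPM for Tm7sf2, where the 9 other libraries lay between 61.6 and 189. It measured 333 CPM for Ebp, the sterol isomerase, where the others lay between 159 and 235. Without ML 9 the log2 fold changes were -0.24 and -0.10. Tm7sf2 and Lbr encode enzymes for the same sterol reductase step, and ML 9 had 16 counts of Lbr (1.04 CPM). Their RPKM ratio was 10.9 to 22.3 among controls and 7.08 to 31.7 among FL, and it was 18.6, 293 and 14.7 in ML 8 to 10. Tm7sf2 shares 532 bases of exon with Vps51 on the same strand. Stard4, a soluble sterol carrier, and Soat2, which esterifies cholesterol in hepatocytes, had log2 fold changes of -0.62 (SE 0.42) and -0.19 (SE 0.40).

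The values were also set against exon length, in each library. In ML 9 the 7 genes with under 3000 bases of exon had a median of 0.63 on the log2 scale against each gene's mean over the 10 libraries, and the 19 longer genes had a median of -0.93. In ML 10 the medians were -0.76 and -0.77, and in control 1 they were 0.25 and 0.58. Across the 26 genes Pearson's r between log10 exon length and this difference was -0.34 in ML 9, -0.31 in control 1, 0.28 in control 3 and 0.36 in FL 5, and from -0.14 to 0.22 in the 6 others, as a description of genes that share a library. With the trend on length and GC content removed, the ML median over the 26 genes was -0.63.

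**Figure D2:**
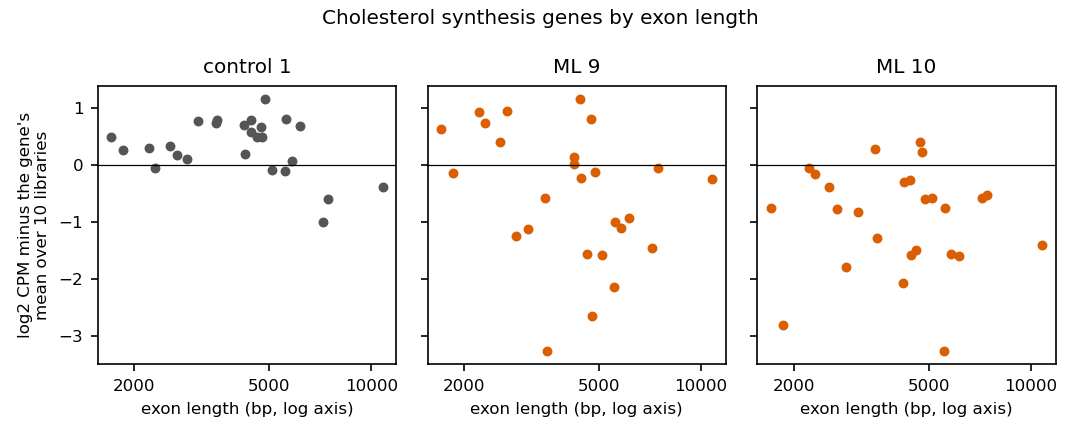
Difference of each gene's log2 CPM from its mean over the 10 libraries (y axis, log2) against exon length in bases (x axis, log scale) in control 1, ML 9 and ML 10. In ML 9 the genes with short exons lie mostly above 0 and the longer ones mostly below, with medians of 0.63 and -0.93. Both medians lie above 0 in control 1 and below 0 in ML 10.

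Without control 1 and ML 9, 25 of 26 genes had estimates below 0 and the median was -0.85. In that fit 10 genes had an unadjusted p under 0.05, all lower, 0 passed after adjustment by edgeR, and 27.5% of all genes had such a p in either direction. In those 8 libraries 10 genes were lower in both ML libraries than in all 3 controls, where 24.2% of all genes were. Ggps1 was the 1 member that was higher in both, where 24.2% of all genes were higher. The number of genes at an unadjusted p under 0.05 was 5 without control 3, 4 without ML 10 and 14 without ML 8, all lower. In those fits 10.1%, 14.7% and 19.7% of all genes had such a p in either direction, so the share of the 26 genes without ML 10 was near that of all genes. Without ML 9 alone the number was 7, all lower, where 4.37% of all genes had such a p in either direction. With a surrogate variable in the fit the number was 8, all lower, where 3.06% of all genes did.

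In offspring of LIRKO fathers most estimates were again below 0, and Insig2 had the one farthest from 0. Of the 26 genes, 22 lay below 0. Their median log2 fold change was -0.36, and that of all genes was -0.05, of which 55.3% were below 0. The edgeR test called 0 members and 0.0135% of all genes. Insig2 and Soat2 had an unadjusted p under 0.05, both lower, where 1.9% of all genes were lower at that p. The same 2 genes were lower in every FL library than in every control, where 2.92% of all genes were. DESeq2 called Insig2, and 0.344% of the 15714 genes to which it gave an adjusted p. By limma-voom 0 members were called, with 2 at an unadjusted p under 0.05, where 3.3% of all genes had such a p in either direction.

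Insig2 holds the SCAP complex back as Insig1 does. It measured 232, 537, 136 and 242 CPM in controls 1 to 4 and 53.4, 50.8 and 103 CPM in FL 5 to 7. All FL libraries lay below all controls, and control 2 stood far above the rest. The means were 287 ± 174 CPM (SD, n = 4) and 69.1 ± 29.4 CPM (SD, n = 3). The log2 fold change was -2.05 (SE 0.49, unadjusted p = 0.00135, adjusted p = 0.575 by edgeR), and the adjusted p was 0.0112 by DESeq2. Without control 2 it was -1.56. Over the alternative settings the log2 fold change ran from -2.46 to -1.56 and the adjusted p from 0.0112 to 1.00. In ML the gene measured 159, 93.4 and 170 CPM, which overlapped the controls, with a log2 fold change of -1.03 (SE 0.47), and -0.52 without control 2.

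Insig1 overlapped between FL and controls. It measured 119, 239 and 333 CPM in FL 5 to 7, which spanned the control range, and its log2 fold change was -0.23 (SE 0.40). The ratio of Insig2 to Insig1 in RPKM was 0.623, 2.75, 0.439 and 0.728 in controls 1 to 4, 0.400, 0.189 and 0.276 in FL 5 to 7, and 0.766, 0.930 and 1.39 in ML 8 to 10. The FL ratios lay below all others, with FL 5 close to control 3. The ML ratios lay within the range of the controls. This ratio was formed after the values were seen and is given with no test.

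**Figure D3:**
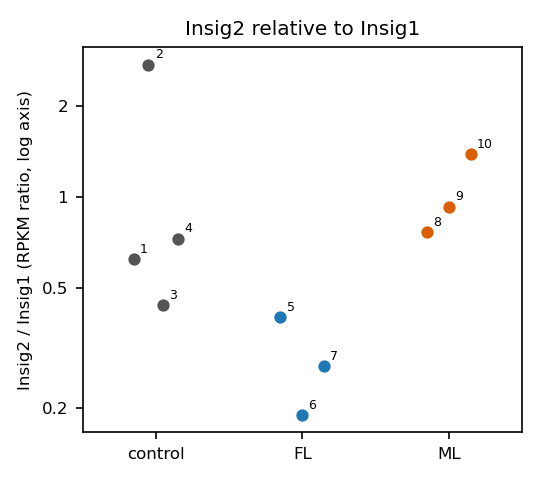
Ratio of Insig2 to Insig1 (RPKM over RPKM, log axis) in each library by group. The 3 FL points lie at 0.189 to 0.400, below all control and ML points.

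Soat2 measured 37.2, 61.9, 28.4 and 34.8 CPM in controls and 23.0, 23.5 and 15.3 CPM in FL. The groups did not overlap, and control 3 came nearest to FL. The log2 fold change was -0.98 (SE 0.41, unadjusted p = 0.0336, adjusted p = 1.00 by edgeR). ML spanned 20.4 to 57.5 CPM. For Stard4 in FL the log2 fold change was 0.07 (SE 0.41).

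For the enzymes, no FL group lay wholly below the controls. All 8 genes of the mevalonate arm had estimates below 0, from -1.19 to -0.22, with Hmgcs1 the lowest. Hmgcs1 measured 161, 107 and 58.6 CPM in FL 5 to 7, of which FL 5 lay within the control range, FL 6 just below the lowest control and FL 7 further below, with a log2 fold change of -1.19 (SE 0.55, adjusted p = 1.00 by edgeR). Idi1 went from -0.33 to 0.28 without control 3. Sqle measured 65.0, 52.1 and 31.1 CPM, all within the control range, at 0.24 (SE 0.73). Of the genes from lanosterol onward 8 of 9 were below 0, with Sc5d the lowest at -0.72 (SE 0.35). Dhcr7 measured 63.1, 82.3 and 54.7 CPM and Msmo1 97.7, 152 and 83.7 CPM, which overlapped the controls for both genes. Srebf2 measured 46.5, 47.5 and 29.96 CPM, with a log2 fold change of 0.04 (SE 0.44) that was -0.23 without control 1, and Scap measured 80.2, 96.6 and 62.4 CPM. Without control 3, 19 of the 26 genes were below 0 and the median was -0.18, and the number of genes at an unadjusted p under 0.05 was 4 without control 2 and 1 without FL 7, where 4.10% and 2.68% of all genes had such a p.

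**Figure D4:**
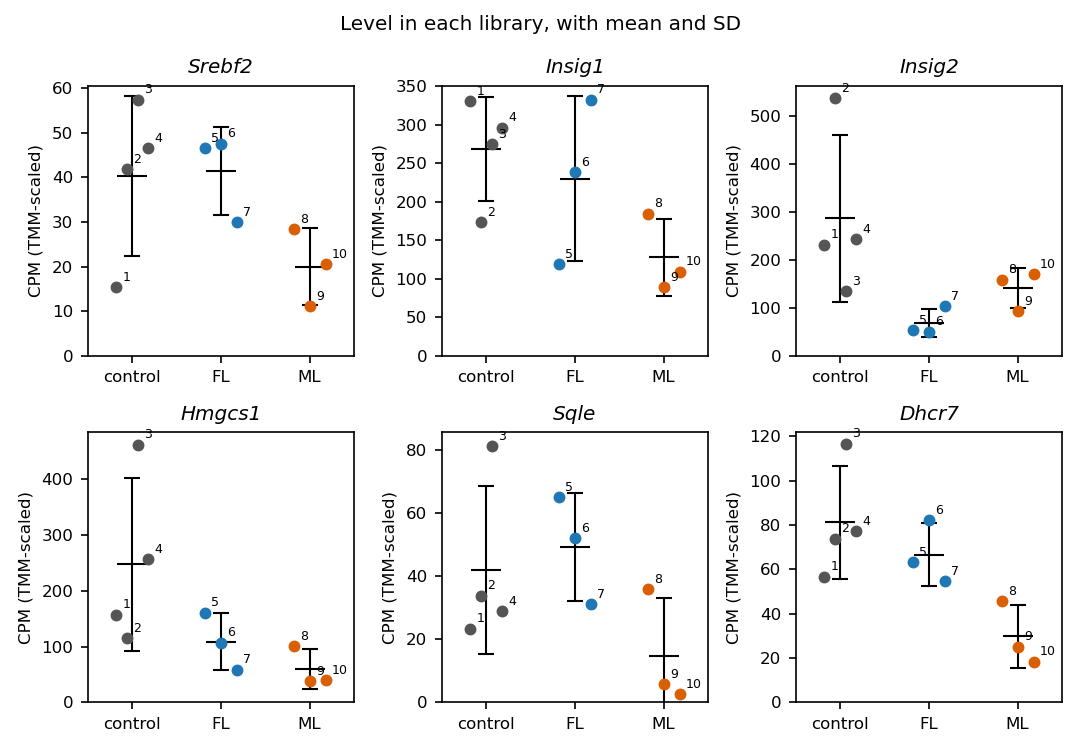
CPM (y axis) of Srebf2, Insig1, Insig2, Hmgcs1, Sqle and Dhcr7 in each library by group, with points for libraries and bars for the mean and SD. The FL values of Insig2 and the ML values of Hmgcs1 and Dhcr7 lie below all 4 controls, and control 3 is the highest control for Srebf2, Hmgcs1, Sqle and Dhcr7.

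**Figure D5:**
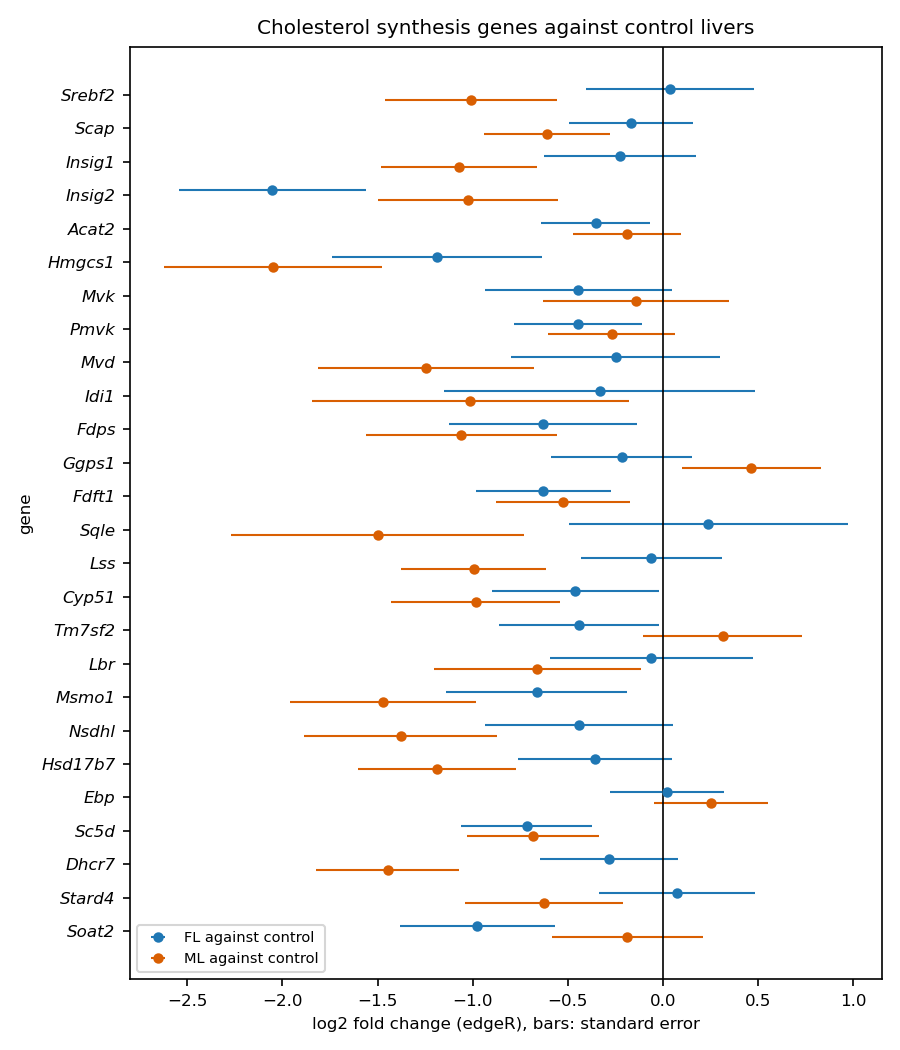
Log2 fold change of the 26 genes in FL and ML against the same 4 controls, with bars of 1 standard error. In ML 23 genes lie left of 0 with a median of -0.99, and in FL 22 do with a median of -0.36.

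Both contrasts above use the same 4 controls, so their values are not independent. The 2 offspring groups were therefore compared directly. Of the 26 genes, 16 had a higher estimate in FL than in ML, with a median log2 difference of 0.56 against 0.04 over all genes, of which 52.1% were above 0. The edgeR test called 0 members and 0.00675% of all genes, and the lowest adjusted p among members was 0.238. DESeq2 and limma-voom called 0 members. At an unadjusted p under 0.05, Srebf2, Lss and Dhcr7 were higher in FL, where 7.59% of all genes were. No member was lower at that p, and 20.0% of all genes had such a p in either direction. The same 3 were higher in every FL library than in every ML library, where 16.6% of all genes were. In this, and at that p in either direction, the 26 genes had a smaller share than all genes.

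Dhcr7 averaged 66.7 ± 14.2 CPM in FL and 29.8 ± 14.2 CPM in ML (SD, n = 3 each). The log2 difference was 1.16 (SE 0.39, adjusted p = 0.238 by edgeR). Srebf2 averaged 41.3 ± 9.85 and 20.0 ± 8.64 CPM, a log2 difference of 1.05 (SE 0.48, adjusted p = 0.249 by edgeR), which was 0.43 with a surrogate variable in the fit. Lss averaged 38.4 ± 6.01 and 20.1 ± 7.58 CPM, a log2 difference of 0.93 (SE 0.40, adjusted p = 0.240 by edgeR), which was 0.28 with the length and GC trend removed. Sqle differed by 1.74 (SE 0.81), and by 3.58 without ML 8. In the other direction, Insig2 had a log2 difference of -1.03 (SE 0.50, adjusted p = 0.259 by edgeR), with ML 9 inside the FL range. Ggps1 was the 1 member lower in every FL library than in every ML library, at -0.68 (SE 0.39), where 15.15% of all genes were. Without ML 10, 0 members had an unadjusted p under 0.05, where 17.2% of all genes did. Without ML 8, 10 were higher in FL at that p and 1 lower, where 23.5% of all genes had such a p. Without FL 6, 1 was higher and 1 lower, where 11.9% did.

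Genes around the pathway were taken from 4 lists, and edgeR called 0 members of each in every contrast. The 10 genes that process or degrade SREBP and its partners had medians of 0.04 in FL and 0.13 in ML against control. At an unadjusted p under 0.05 there were 1 and 2 of them, all higher, where 3.53% and 16.1% of all genes had such a p in either direction, with Ube2g2, a ubiquitin-conjugating enzyme, at 0.61 and 0.72. Of the 17 SREBP1 and shared lipogenic targets, 15 were below 0 in ML, with a median of -1.11. Of these, 8 had an unadjusted p under 0.05, all lower, where 7.33% of all genes were lower at that p. Scd1, the stearoyl-CoA desaturase, and Fasn, the fatty acid synthase, had log2 fold changes of -2.49 (SE 0.55) and -2.30 (SE 0.56) there, each with an adjusted p of 0.301 by edgeR. Fasn was -2.96 without ML 8, and Scd1 was -1.83 without control 1 and ML 9. In FL 11 of the 17 were below 0, with a median of -0.08, and Scd1 and Me1 (malic enzyme) had values of -1.80 (SE 0.53) and -1.46 (SE 0.38). Of the 8 LXR and sterol efflux genes 5 were below 0 in FL and 7 in ML, with medians of -0.24 and -0.35. Nr1h3, which encodes LXR alpha, had a log2 fold change of 1.19 (SE 0.41) in ML and 0.43 without ML 9, which measured 416 CPM where ML 8 and ML 10 measured 125 and 143. The 10 genes of the non-sterol isoprenoid branches had medians of 0.15 and -0.17, and 0 of them had an unadjusted p under 0.05 against control.

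Reads of overlapping genes bear on some of these values, because the strand setting of the counting is not stated. Scap, Hmgcs1, Idi1, Ggps1, Fdft1, Lss, Cyp51 and Lbr overlap exons of a gene on the opposite strand, by up to 985 bases (Scap). The low counts of ML 9, 16 for Lbr and 35 for Idi1, leave those values with the largest counting error among the 26 members.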

How the data were processed

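Liver RNA from 10 libraries (4 control, 3 FL, 3 ML) was analysed from the deposited table of raw counts per gene. Per the labels' protocols, libraries were directional and paired-end. Alignment and counting used STAR and featureCounts on GRCm38, per the submitters' processing notes. Their versions, strand setting and annotation release are not given in the sources. Symbols and exon lengths came from GENCODE M21, which matched 45229 of 46071 rows.

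Counts were tested with edgeR 4.0.16 in R 4.3.3 (scaling by TMM, filterByExpr at a minimum of 10 counts, robust quasi-likelihood F test, all 10 libraries, 1 coefficient per group, 7 residual degrees of freedom), two-sided and adjusted by Benjamini-Hochberg over 14820 genes at 0.05. SE is the size of the log2 fold change over the square root of F. CPM (counts per 1000000) is scaled by the TMM factors, and RPKM divides it by exon length. The procedure was tested on simulated data, with 50 genes changed at each fold. At an adjusted p under 0.05 it recovered 4% of 2-fold changes in FL against control. It recovered 4% of them in ML against control and 0% in FL against ML. For 4-fold changes the shares were 60%, 56% and 52%, so most changes near 2-fold would be missed.

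The members, the lists and the tests were chosen with earlier results of these data known. Per-library values are given for the 3 genes with the lowest p in each contrast and for Srebf2, Scap, Insig1, Insig2, Hmgcs1, Sqle and Dhcr7. For the other lists, named genes come from the 2 lowest p per contrast. Alternatives were DESeq2 1.42.0, limma-voom (limma 3.58.1) with and without quality weights, other scaling factors and filters, a looser threshold, the compared groups only, a surrogate variable (sva 3.50.0), removal of each library's trend on the length and GC content of exons, leaving out control 1 and ML 9 together, and leaving out each library. Some genes of the pathway are not reported here.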

Additional observations from a re-analysis of the deposited data

How the results depend on the processing

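No paired analysis was possible because replicate numbers run through the series and the groups share none. Of 1168 values of single genes under the alternatives, 1132 kept their direction and their side of the threshold, 1 passed it (Insig2 in FL by DESeq2) and 35 changed sign, and the cause was not tested. The count of members called was 1 by DESeq2 in FL against control and 0 under every other setting and contrast. Genes called over the whole table in FL against control were 2, and 54 by DESeq2, 1 by limma-voom, 4 with quality weights, 1 with no filter and 0 to 2 without single libraries. In ML against control they were 0, and 56 by DESeq2, 3 with no filter and 0 to 1 without single libraries. In FL against ML they were 1, and 2 at an adjusted p under 0.1, 31 by DESeq2, 4 with quality weights, 2 with no filter, 0 with the compared groups only, 2 with the trend removed and 0 to 1 without single libraries. The median of the members in ML was -0.63 with the trend removed and -1.13 to -0.66 without single libraries, and in FL against ML it was 0.35 to 0.86 without single libraries.

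In FL against control, Srebf2 was -0.21 with quality weights, -0.23 without control 1 and ML 9 and -0.031 with the trend removed. Ggps1 was 0.12 with quality weights and 0.11 without those libraries, and with quality weights Lbr was 0.0852 and Ebp -0.00842. Without single libraries the ranges were -0.23 to 0.26 for Srebf2, -0.59 to 0.0909 for Insig1, -0.83 to 0.28 for Idi1, -0.36 to 0.10 for Ggps1, -0.00907 to 0.78 for Sqle, -0.25 to 0.22 for Lss, -0.24 to 0.19 for Lbr, -0.12 to 0.16 for Ebp and -0.22 to 0.32 for Stard4. In ML against control, Tm7sf2 was -0.0561 with quality weights, -0.0585 without control 1 and ML 9 and -0.13 with the surrogate variable, and Ebp was -0.0677 and -0.113 under the first 2 of these. Ranges without single libraries were -0.76 to 0.21 for Mvk, -0.24 to 0.56 for Tm7sf2, -0.10 to 0.41 for Ebp and -0.70 to 0.0902 for Soat2. Scap in FL against ML was -0.24 with the trend removed. With 3 or 4 libraries a group and a biological coefficient of variation of 0.448, the number of libraries limits precision, and in ML 9 the 16 and 35 counts of Lbr and Idi1 do so too.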
